A study of Homo sapiens with 16 samples.

Results

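The guanylate-binding proteins are a family of large GTPases that interferon-gamma (IFN-gamma) switches on, and this account follows the genes GBP1, GBP2, GBP3, GBP4 and GBP5 in human THP-1 macrophages. The 5 genes were taken by symbol from a table of 60664 genes, and each has 1 row there. RNA was sequenced in 16 libraries of THP-1, a monocytic leukaemia cell line, with 4 libraries in each of 4 groups. All cells, the controls included, were first differentiated for 48 hours with the phorbol ester PMA at 100 ng/mL, which gives adherent unpolarized macrophages (M0). The M0+LPS/IFNg+iMSC group then received 100 ng/mL lipopolysaccharide (LPS) of Porphyromonas gingivalis and 20 ng/mL IFN-gamma for 48 hours while sharing medium with mesenchymal stem cells made from induced pluripotent stem cells (iMSCs) in the upper chamber of a Transwell insert. Also for 48 hours, the M0+LPS/IFNg group received LPS with IFN-gamma and no iMSCs, and the M0+iMSC group received iMSCs and no stimulus. The M0 group received neither and has 0 hours of treatment recorded. Whether M0 was kept in culture for those 48 hours is not stated here. Contrasts that use M0, the interaction included, therefore cannot tell treatment from any added culture time. The samples are labelled wild type, all come from the same cell line, and nothing says that the replicates were separate cultures, so p-values reflect only how far these libraries scatter, which could be technical scatter. In the count table the co-culture libraries bear the letters CM, left unexplained in the labels, and the co-culture described here is taken from the labels.

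When IFN-gamma binds its receptor (IFNGR1 and IFNGR2), the kinases JAK1 and JAK2 pass the signal on to DNA elements called gamma-activated sites (GAS). The transcription factor IRF1 is raised in turn and acts at interferon-stimulated response elements (ISRE). Guanylate-binding proteins made in this way coat intracellular bacteria and parasite vacuoles. They help expose bacterial LPS to the caspases CASP4 and CASP5, which start pyroptosis. GBP1, GBP2 and GBP5 carry a lipid anchor added by prenylation, which ties them to membranes, while GBP3 and GBP4 lack that anchor and join coats formed by GBP1.

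The 5 genes lie near each other on the minus strand of chromosome 1 (GRCh38.p13, coordinates as deposited), with part of GBP7 between GBP2 and GBP4. GBP3 (ENSG00000117226) spans 89006679 to 89022894, GBP1 (ENSG00000117228) spans 89051882 to 89065360 and GBP2 (ENSG00000162645) spans 89106132 to 89150456. GBP4 (ENSG00000162654) spans 89181144 to 89198942 and GBP5 (ENSG00000154451) spans 89258950 to 89272804. The span of GBP2 overlaps that of GBP7 (89131742 to 89176009) on the same strand.

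Promoter windows from RefSeq (GRCh38.p14, 250 bases before to 50 bases after the gene start) matched 3 of the 5 genes, GBP1, GBP3 and GBP4. They are printed because these genes moved in the same direction in all 7 contrasts, and because the windows hold the letters of the elements just named. Capitals mark matches to the GAS letters TTCNNNGAA or the ISRE letters (GAAA, any 2 bases, GAAA), searched on both strands. Each sequence is written 5′ to 3′ on the gene's own strand, which is the minus strand for all 3.
GBP1, chr1:89065159-89065458: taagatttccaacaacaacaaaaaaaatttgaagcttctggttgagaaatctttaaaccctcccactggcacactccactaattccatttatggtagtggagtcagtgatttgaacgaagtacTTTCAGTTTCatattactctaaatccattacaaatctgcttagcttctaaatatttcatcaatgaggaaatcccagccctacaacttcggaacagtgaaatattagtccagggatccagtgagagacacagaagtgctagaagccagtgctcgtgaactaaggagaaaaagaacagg
GBP3, chr1:89022817-89023116: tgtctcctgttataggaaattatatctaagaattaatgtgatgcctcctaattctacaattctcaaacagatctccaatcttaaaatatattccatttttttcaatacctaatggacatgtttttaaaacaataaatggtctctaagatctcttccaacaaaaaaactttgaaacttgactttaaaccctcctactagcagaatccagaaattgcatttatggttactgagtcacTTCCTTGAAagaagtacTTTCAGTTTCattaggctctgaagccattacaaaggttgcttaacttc
GBP4, chr1:89198893-89199192: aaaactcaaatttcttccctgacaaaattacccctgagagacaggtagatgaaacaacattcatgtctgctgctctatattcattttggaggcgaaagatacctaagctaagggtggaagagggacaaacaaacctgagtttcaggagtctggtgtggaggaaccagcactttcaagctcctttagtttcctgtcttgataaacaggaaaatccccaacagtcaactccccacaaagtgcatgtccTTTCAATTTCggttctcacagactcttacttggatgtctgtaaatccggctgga

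All 3 windows held 1 ISRE match, in each case on the opposite strand. GBP1 and GBP3 shared the same 10 letters, TTTCAGTTTC, and GBP4 had TTTCAATTTC. The match began 127 bases before the start in GBP1, 4 bases before it in GBP4 and at base 3 of the transcript in GBP3. These starts are RefSeq's, and for GBP1 and GBP3 they lie inside the deposited gene spans given above, as do the GBP1 ISRE match and both GBP3 matches. GBP3 alone of the 3 also held a GAS match, TTCCTTGAA, which began 15 bases before the start. Of 35116 RefSeq windows of this length, 3.57% held the ISRE letters, 7.66% the GAS letters and 0.439% both. The windows of the relatives GBP6 and GBP7 held neither. A match is a description of letters and does not show that a factor binds there. The 3 windows were printed partly because they hold these letters, so the shares over all windows are no test of them.

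The depth was 18200706 to 23227097 counts a library in M0+LPS/IFNg+iMSC, 21002872 to 24368753 in M0+LPS/IFNg, 17336637 to 23806909 in M0+iMSC and 20338546 to 24149246 in M0. Levels are CPM, each count scaled to a common library size, after TMM scaling for library composition, and levels of different genes are compared per kilobase of exon. M0+LPS/IFNg replicate 4 stood apart: 327 of 6720 well-expressed genes (average log2 CPM of at least 4) lay 2-fold or more away from its 3 fellow replicates' mean, while the other 15 libraries had 0 to 47 such genes each. All 8 macrophage markers examined had counts in every group. Summed, they ran from 4074 to 4245 CPM in M0+LPS/IFNg+iMSC and from 2074 to 3950 CPM in M0+LPS/IFNg. The sum was 1239 to 1287 CPM in M0+iMSC and 968 to 1017 CPM in M0. Among them CD68, a lysosomal glycoprotein used to identify macrophages, had only 1 to 8 counts a library. Of 8 mesenchymal markers, 6 had counts in M0+LPS/IFNg+iMSC, 6 in M0+LPS/IFNg, 6 in M0+iMSC and 4 in M0. Their summed level ran from 29.5 to 32.3 CPM in M0+LPS/IFNg+iMSC, 7.49 to 10.9 CPM in M0+LPS/IFNg, 32.7 to 39.97 CPM in M0+iMSC and 15.2 to 17.4 CPM in M0. The sum mixed unlike patterns. PDGFRB averaged 1.35 CPM in M0+LPS/IFNg+iMSC, 2.35 CPM in M0+LPS/IFNg, 28.6 CPM in M0+iMSC and 14.7 CPM in M0. COL1A1 averaged 9.18, 7.26, 6.16 and 1.67 CPM in the same groups. COL1A2, a fibrillar collagen chain, had 0 counts in both co-culture groups, and DCN, the matrix proteoglycan decorin, stood at 18.8 ± 2.02 CPM in M0+LPS/IFNg+iMSC, 0.0662 ± 0.0779 CPM in M0+LPS/IFNg, 0.787 ± 0.398 CPM in M0+iMSC and 0 counts in M0 (SD, n = 4 each). The part of iMSC RNA in the results was not tested.

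The 5 genes kept the same order of groups. Each was highest in M0+LPS/IFNg, then in M0+LPS/IFNg+iMSC, then in M0+iMSC, and lowest in M0. Summed over the 5 genes, they took 0.0786% ± 0.0119 of all counts in M0+LPS/IFNg+iMSC, 0.193% ± 0.0105 in M0+LPS/IFNg, 0.00495% ± 0.000421 in M0+iMSC and 0.000701% ± 2.97e-05 in M0 (SD, n = 4 each). Neighbours in that order differed in the quasi-likelihood test of edgeR for all 5 genes except M0+iMSC and M0 for GBP5. These directions were the same when library totals were used without scaling factors. In bulk RNA, fewer cells with a transcript and less transcript per cell cannot be told apart.

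**Figure D1:**
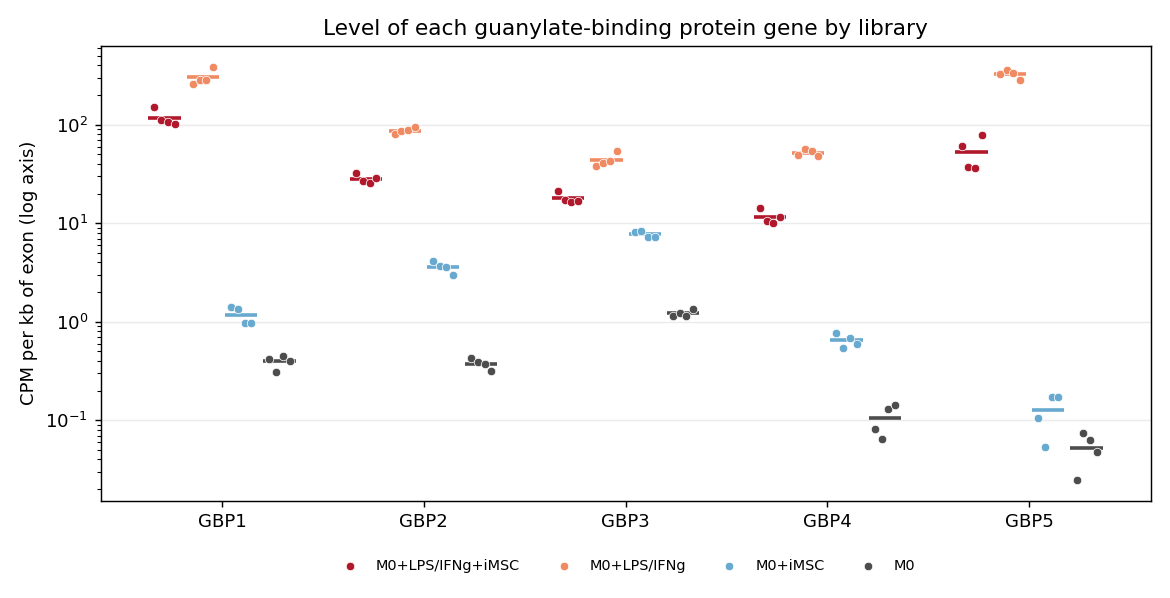
Level of each gene in CPM per kb of exon (log axis), 1 point per library and a bar at the mean of each group of 4. For GBP1 to GBP4 the 4 groups form separate steps with no library out of place, while for GBP5 the M0+iMSC and M0 points run into each other at 0.0536 to 0.173 and 0.0248 to 0.0747 CPM per kb.

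Stimulation without iMSCs was compared first, M0+LPS/IFNg against M0. All 5 genes rose, where 29.1% of the 15301 genes tested were higher and 57.4% differed in either direction at an edgeR adjusted p under 0.05. Their median log2 fold change was 8.93, against 0.01 over all genes tested. No library of M0+LPS/IFNg overlapped with M0 for any of the 5, as for 52.2% of all genes.

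GBP5, which in human macrophages also takes part in inflammasome assembly, went furthest. It had 11465, 14073, 13546 and 9825 counts in the M0+LPS/IFNg libraries, against 1, 3, 3 and 2 counts in the M0 libraries. The transcript was thus at the edge of detection in every M0 library and abundant in every stimulated one. In CPM that was 658 ± 68.5 in M0+LPS/IFNg and 0.106 ± 0.0432 in M0. The ratio of summed counts was 6204, with a 95% counting interval of 3268 to 13569 that covers counting error only. Its fitted rise of 12.52 ± 0.40 (log2 ± SE, edgeR adjusted p = 5.54e-12) ranked 2 of 15301 genes.

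GBP1, the member that forms the coat on bacteria, had 749, 812, 821 and 1122 CPM in the M0+LPS/IFNg libraries, against 1.20, 0.902, 1.30 and 1.16 CPM in the M0 libraries. Replicate 4 was the highest stimulated library for GBP1 and, at 566 CPM against 655, 730 and 680 CPM, the lowest for GBP5. GBP1 rose by 9.57 ± 0.22 (log2 ± SE, edgeR adjusted p = 3.63e-14), a fold of 761, and ranked 14 by size. Without replicate 4 the rises were 9.43 for GBP1 and 12.58 for GBP5.

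GBP4, a cytosolic member recruited to coats, stood at 302, 346, 333 and 299 CPM in the M0+LPS/IFNg libraries, against 0.498, 0.401, 0.797 and 0.871 CPM in the M0 libraries. It rose by 8.93 ± 0.18 (adjusted p = 2.38e-15). GBP2, a prenylated member, stood at 332, 351, 359 and 384 CPM in M0+LPS/IFNg, against 1.74, 1.60, 1.51 and 1.31 CPM in M0. Its rise of 7.85 ± 0.13 had the smallest p of all genes in this comparison (adjusted p = 2.39e-17).

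GBP3, another member without the anchor, moved least. It stood at 117, 125, 130 and 163 CPM in the M0+LPS/IFNg libraries, against 3.49, 3.76, 3.44 and 4.11 CPM in the M0 libraries. GBP3 was the highest of the 5 in M0, and its rise of 5.18 ± 0.13 (edgeR adjusted p = 2.82e-15) was the smallest of the 5. It still ranked 68 of 15301 genes.

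**Figure D2:**
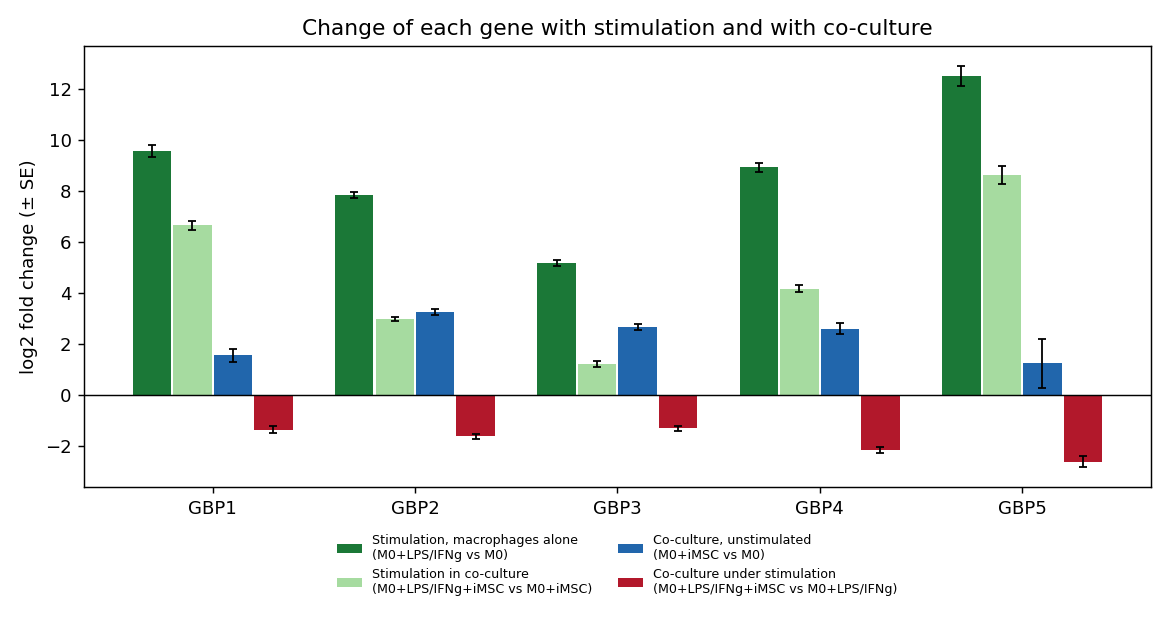
Fitted log2 fold change of each gene, with bars for the SE, for stimulation in macrophages alone and in co-culture and for co-culture without and under stimulation. Stimulation bars run from 1.22 to 12.52, co-culture bars are above 0 without a stimulus and between -1.30 and -2.62 under LPS with IFN-gamma.

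Co-culture without a stimulus set M0+iMSC against M0. GBP1, GBP2, GBP3 and GBP4 rose and GBP5 did not pass, so 4 of 5 were called higher, against 36.2% of all genes (69.8% in either direction). The median over the 5 was 2.61, against 0.03 over all genes. GBP1 to GBP4 did not overlap between the groups, as was the case for 69% of genes.

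GBP2 rose most here. It stood at 16.8, 15.2, 14.6 and 12.3 CPM in the M0+iMSC libraries, against 1.74, 1.60, 1.51 and 1.31 CPM in the M0 libraries. The rise was 3.25 ± 0.12 (log2 ± SE, edgeR adjusted p = 1.08e-12), a fold of 9.52. GBP3 stood at 24.6, 25.4, 21.9 and 21.9 CPM in M0+iMSC and at 3.49, 3.76, 3.44 and 4.11 CPM in M0, a rise of 2.66 ± 0.12 (adjusted p = 8.62e-12). Every co-culture library of both genes was several times the highest M0 library.

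GBP4 had 112, 61, 97 and 95 counts in the M0+iMSC libraries, against 10, 8, 19 and 18 counts in the M0 libraries, and rose by 2.61 ± 0.21 (edgeR adjusted p = 1.86e-08). GBP1 rose less, by 1.56 ± 0.25 (adjusted p = 4.37e-05), with 97, 72, 65 and 73 counts in M0+iMSC and 24, 18, 31 and 24 counts in M0. In M0+iMSC, replicates 1 and 2 were above replicates 3 and 4 for GBP1, at 4.08 and 3.88 CPM against 2.80 and 2.82 CPM. Without replicates 1 and 2 its rise was 1.29, and without replicates 3 and 4 it was 1.80.

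GBP5 had 5, 2, 8 and 9 counts in the M0+iMSC libraries, against 1, 3, 3 and 2 counts in the M0 libraries, and the groups overlapped. Its fitted change was 1.26 ± 0.96 (edgeR adjusted p = 0.259). The 24 counts against 9 gave a ratio of 2.47 with a 95% counting interval of 1.11 to 6.03 that covers counting error only. Without M0+iMSC replicates 1 and 2 the fitted change was 1.65, and without replicates 3 and 4 it was 0.61, neither past the threshold. DESeq2 placed the same change at 1.31 with an adjusted p of 0.0463, where its alternatives ran from 0.0463 to 0.720.

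Co-culture under the stimulus, the comparison in the title of the series, set M0+LPS/IFNg+iMSC against M0+LPS/IFNg. All 5 genes fell, where 36.3% of all genes were lower and 74.7% differed in either direction. The median over the 5 was -1.62, against 0.03 over all genes. The groups did not overlap for any of the 5, as for 65.9% of genes. Scaling by library totals moved the median of all genes to 0.50 and that of the 5 genes to -1.15, and all 5 still fell.

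GBP5 fell most. It stood at 123, 74.7, 73.8 and 157 CPM in the M0+LPS/IFNg+iMSC libraries, against 655, 730, 680 and 566 CPM in the M0+LPS/IFNg libraries. Replicate 4 was the highest co-cultured library and the lowest library without iMSCs, so the groups were closest there and still far apart. The change was -2.62 ± 0.21 (log2 ± SE, edgeR adjusted p = 3.50e-08), a fold of 0.163, with a leave-one-out range of -2.86 to -2.47.

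GBP4 followed with 88.0, 64.5, 62.4 and 71.5 CPM in M0+LPS/IFNg+iMSC, against 302, 346, 333 and 299 CPM in M0+LPS/IFNg, a change of -2.16 ± 0.12 (edgeR adjusted p = 5.25e-11). GBP2 stood at 133, 109, 104 and 118 CPM in M0+LPS/IFNg+iMSC, against 332, 351, 359 and 384 CPM in M0+LPS/IFNg. Its change was -1.62 ± 0.09 (adjusted p = 1.93e-11). For both genes every co-cultured library lay far below the lowest library without iMSCs.

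GBP1 and GBP3 fell least. GBP1 stood at 436, 326, 311 and 292 CPM in M0+LPS/IFNg+iMSC, against 749, 812, 821 and 1122 CPM in M0+LPS/IFNg, a change of -1.36 ± 0.14 (edgeR adjusted p = 3.65e-07). GBP3 stood at 64.6, 52.1, 49.5 and 51.7 CPM in M0+LPS/IFNg+iMSC, against 117, 125, 130 and 163 CPM in M0+LPS/IFNg, a change of -1.30 ± 0.10 (adjusted p = 2.57e-09). Library totals without factors brought these 2 changes to -0.89 and -0.82, the smallest of any alternative, with both still called.

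The fall did not bring the genes back to their unstimulated level. Against M0, all 5 were higher in M0+LPS/IFNg+iMSC, where 39.6% of all genes were higher and 77.4% differed in either direction. GBP5 was higher by 9.90 ± 0.40, GBP1 by 8.21 ± 0.22, GBP4 by 6.77 ± 0.18, GBP2 by 6.23 ± 0.12 and GBP3 by 3.88 ± 0.12 (log2 ± SE, edgeR adjusted p = 1.83e-11, 3.12e-14, 7.94e-15, 1.09e-16 and 1.99e-14).

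Stimulation was also compared within co-culture, M0+LPS/IFNg+iMSC against M0+iMSC. All 5 genes rose, where 39.3% of all genes were higher and 74.4% differed in either direction. GBP5 rose by 8.64 ± 0.36, GBP1 by 6.66 ± 0.19 and GBP4 by 4.17 ± 0.14 (edgeR adjusted p = 2.56e-11, 1.13e-13 and 1.76e-13). GBP2 rose by 2.98 ± 0.09 and GBP3 by 1.22 ± 0.10 (adjusted p = 2.59e-14 and 9.41e-09). GBP3 thus stood at 54.5 ± 6.83 CPM in M0+LPS/IFNg+iMSC and 23.5 ± 1.80 CPM in M0+iMSC (SD, n = 4 each), the narrowest gap of the 5.

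The interaction tests whether the co-culture effect under stimulation differed from that at rest, and it was below 0 for all 5 genes, where 31.1% of all genes were lower and 62.1% differed in either direction. GBP2 had -4.87 ± 0.15, GBP4 -4.77 ± 0.24 and GBP3 -3.96 ± 0.16 (log2 ± SE, edgeR adjusted p = 1.29e-13, 8.70e-11 and 2.90e-12). GBP1 had -2.92 ± 0.28 (adjusted p = 3.42e-07). GBP5 had -3.87 ± 0.99 (adjusted p = 0.00357), which draws on only 24 counts in M0+iMSC and 9 in M0. Without M0+LPS/IFNg replicate 4 it was -3.94 with an adjusted p of 0.0635, and without M0+iMSC replicates 3 and 4 it was -3.24 with an adjusted p of 0.102, so the call for GBP5 was lost in both. Over its alternatives the adjusted p ran from 4.94e-09 to 0.102.

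Per kilobase of exon, by the deposited exon lengths, the leading gene changed with the state of the cells. In M0, GBP3 led with 1.22 ± 0.102 CPM per kb, above GBP1 at 0.395 ± 0.0587, GBP2 at 0.377 ± 0.0447, GBP4 at 0.104 ± 0.0371 and GBP5 at 0.0525 ± 0.0215 (SD, n = 4). GBP1 and GBP2 differed by less than their spread. In M0+iMSC, GBP3 led again at 7.72 ± 0.594 CPM per kb, with GBP2 at 3.60 ± 0.459 and GBP1 at 1.18 ± 0.237. In M0+LPS/IFNg, GBP5 and GBP1 led at 327 ± 34.1 and 304 ± 58.1 CPM per kb, closer than their spread, and GBP3 was last at 44.1 ± 6.74. In M0+LPS/IFNg+iMSC, GBP1 led alone: its libraries ran from 101 to 151 CPM per kb and those of GBP5 from 36.7 to 78.1.

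The make-up of the family does not depend on library scaling, since each gene is taken as a share of the 5 genes' counts in its own library. These shares were compared with two-sided exact permutation tests of 4 libraries against 4, adjusted over 20 tests. The smallest p such a test can give is 0.0286, and 15 of the 20 comparisons reached it, at an adjusted p of 0.0381.

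GBP3 held 5.69% ± 0.519 of the counts in M0+LPS/IFNg and 51.9% ± 3.48 in M0 (SD, n = 4 each), and GBP5 held 28.2% ± 3.98 and 1.49% ± 0.640 in the same groups. GBP1 held 37.2% ± 4.75 in M0+LPS/IFNg and 15.97% ± 2.15 in M0. All 5 shares differed between these groups with no overlap, at adjusted p = 0.0381 in the exact permutation test, but that of GBP4 did not pass when GBP6, GBP7 and GBP1P1 entered the sum (exact permutation adjusted p = 0.0672).

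At rest, co-culture moved the make-up less. GBP2 held 32.1% ± 1.62 in M0+iMSC and 21.7% ± 3.36 in M0, and GBP1 held 7.37% ± 0.876 in M0+iMSC and 15.97% ± 2.15 in M0, both at adjusted p = 0.0381 in the exact permutation test. GBP3 held 51.3% ± 2.25 in M0+iMSC and 51.9% ± 3.48 in M0 (exact permutation adjusted p = 0.752). The M0 shares come from only 136 to 171 counts a library.

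Under stimulation, the share of GBP4 was 10.4% ± 0.0463 in M0+LPS/IFNg+iMSC and 13.7% ± 1.29 in M0+LPS/IFNg. GBP3 held 7.93% ± 0.420 in M0+LPS/IFNg+iMSC and 5.69% ± 0.519 in M0+LPS/IFNg, and GBP2 held 16.9% ± 0.757 and 15.2% ± 0.278 in the same groups. These 3 shares differed with no overlap (exact permutation adjusted p = 0.0381 each). GBP5 held 14.6%, 11.9%, 12.3% and 22.8% in the M0+LPS/IFNg+iMSC libraries, against 30.4%, 30.9%, 29.3% and 22.3% in the M0+LPS/IFNg libraries. GBP1 held 51.6%, 52.0%, 51.8% and 42.3% in M0+LPS/IFNg+iMSC, against 34.8%, 34.3%, 35.3% and 44.3% in M0+LPS/IFNg. The fourth libraries of both groups crossed for these 2 genes, and neither difference passed (exact permutation adjusted p = 0.0672 for each). Without M0+LPS/IFNg replicate 4 the differences in mean share were -14.8 percentage points for GBP5 and 14.6 for GBP1, against -12.8 and 12.2 with it.

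**Figure D3:**
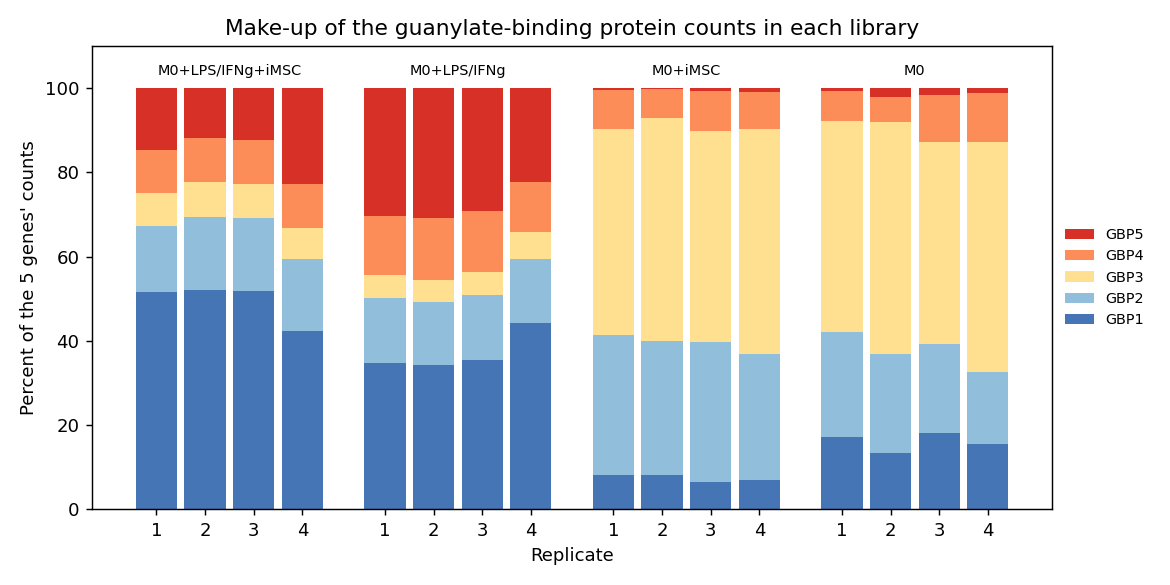
Each bar is a library, split by the percent of the 5 genes' counts that each gene holds, for 4 replicates in each of the 4 groups. GBP3 takes 48.0% to 55.1% of the counts in the M0 libraries and 5.30% to 6.45% in the M0+LPS/IFNg libraries, and replicate 4 of both stimulated groups differs from its neighbours in GBP1 and GBP5.

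Reads of close relatives can be assigned to the wrong gene, and the sources used here do not say how shared reads were counted. Among the GENCODE version 29 transcripts of GBP1 to GBP7 and the pseudogene GBP1P1, 9.62% of the 50-base windows of GBP1 also occurred in another of these genes, 10.2% of those of GBP2, 4.40% of those of GBP3, 0.309% of those of GBP4 and 0.0% of those of GBP5. With 100-base windows the shares were 1.09% for GBP1, 8.42% for GBP2 and 0.0% for GBP3, GBP4 and GBP5. At 100 bases the GBP2 windows were shared with GBP7, whose span it overlaps, and those of GBP1 with GBP1P1. At 50 bases GBP1 also shared 171 windows with GBP3 (3.4% of its own) and 32 with GBP2, so members share sequence among themselves.

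These relatives had few reads except GBP1P1. GBP7 had 2, 2, 1 and 2 counts in the M0+LPS/IFNg+iMSC libraries, 5, 6, 11 and 16 in M0+LPS/IFNg, 0, 0, 1 and 0 in M0+iMSC and 0 in all 4 M0 libraries, and GBP6 had at most 9 in any library. Both were below the filter on low counts. GBP1P1 (ENSG00000225492, chromosome 1, 89407679 to 89426243, plus strand) had 518, 391, 413 and 303 counts in M0+LPS/IFNg+iMSC, 962, 1186, 1304 and 1635 in M0+LPS/IFNg, 0, 0, 2 and 1 in M0+iMSC and 1 in each M0 library. It changed by 10.34 with stimulation and by -1.98 with co-culture under stimulation (edgeR adjusted p = 1.49e-12 and 3.38e-08). The atlastins ATL1, ATL2 and ATL3, related GTPases that shape the endoplasmic reticulum, were at -1.25, -0.13 and -0.04 with stimulation (adjusted p = 0.0191, 0.0429 and 0.590).

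Receptor, kinase and transcription factor genes of interferon signalling, not all particular to IFN-gamma, were followed as a list of 9. Counts in this and the following lists stand beside 57.4% of all genes called in either direction with stimulation, 69.8% in unstimulated co-culture and 74.7% in co-culture under stimulation. With stimulation 8 rose and 1 fell, with a median of 0.67, and with library totals alone 5 rose and 1 fell. IRF1 rose by 3.07, to 461 ± 17.6 CPM in M0+LPS/IFNg against 54.8 ± 1.43 CPM in M0 (SD, n = 4 each, edgeR adjusted p = 2.82e-15). JAK2 rose by 1.22 and STAT2, a transcription factor of type I interferon signalling, by 2.35 (adjusted p = 6.27e-09 and 5.01e-07). IRF8, a myeloid transcription factor, fell by 0.52 (adjusted p = 0.000770).

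In unstimulated co-culture 3 of these 9 rose and 2 fell, with a median of -0.01. Without M0+LPS/IFNg replicate 4, which alters the shared spread, 3 rose and 4 fell, and with library totals alone 5 rose and 2 fell, with a median of 0.13. IRF8 rose by 1.37 (edgeR adjusted p = 1.15e-08). IRF1 fell by 0.64, to 35.1 ± 1.86 CPM in M0+iMSC against 54.8 ± 1.43 CPM in M0 (adjusted p = 4.29e-07), while GBP1 to GBP4 rose in the same libraries. JAK1 fell by 0.75 (adjusted p = 2.84e-08).

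Under stimulation co-culture lowered 4 of the 9 and raised 3, with a median of -0.02, while library totals alone gave 3 lower and 5 higher and a median of 0.45. Without M0+LPS/IFNg replicate 4 it lowered 4 and raised 4, with a median of 0.02. IRF1 fell by 2.14, to 105 ± 13.5 CPM in M0+LPS/IFNg+iMSC against 461 ± 17.6 CPM in M0+LPS/IFNg (edgeR adjusted p = 6.05e-14). The receptor genes went the other way: IFNGR1 rose by 1.28, to 347 ± 15.0 CPM in M0+LPS/IFNg+iMSC against 143 ± 30.9 CPM in M0+LPS/IFNg, and IFNGR2 rose by 0.67 (adjusted p = 4.30e-09 and 0.00262). For IFNGR2 the groups overlapped, with libraries from 420 to 457 CPM in M0+LPS/IFNg+iMSC and from 214 to 431 CPM in M0+LPS/IFNg. The interaction for IRF1 was a ratio of 0.354 (edgeR adjusted p = 1.27e-09).

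Of 6 inhibitor genes of interferon signalling, not all particular to IFN-gamma, 5 were tested. SOCS1, an inhibitor of the JAK kinases, had 3 to 6 counts a library in M0+LPS/IFNg+iMSC, 10 to 14 in M0+LPS/IFNg, 2 to 4 in M0+iMSC and 2 to 4 in M0 and was not tested. With stimulation 3 of the 5 rose (2 rose and 1 fell with library totals alone), with SOCS3 at 1.78 (edgeR adjusted p = 1.83e-07). Among the 3, USP18, an inhibitor of type I interferon signalling, had 35, 26, 26 and 912 counts in the M0+LPS/IFNg libraries, against 26, 30, 34 and 27 in the M0 libraries, so its rise rests on M0+LPS/IFNg replicate 4. In unstimulated co-culture 3 fell, with SOCS3 at -2.27 (adjusted p = 1.77e-08). USP18 was not called there, though it averaged 6.87 ± 1.49 CPM in M0+iMSC against 1.38 ± 0.0995 CPM in M0 (SD, n = 4 each). Without M0+LPS/IFNg replicate 4, which alters the shared spread, 3 fell and 1 rose of 6 tested. Under stimulation co-culture lowered 2 of the 5, SOCS3 by 1.17 and PIAS1 by 0.31, though without M0+LPS/IFNg replicate 4 it lowered 4 and raised 1 of 6 tested, and library totals alone gave 1 lower and 3 higher.

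**Figure D4:**
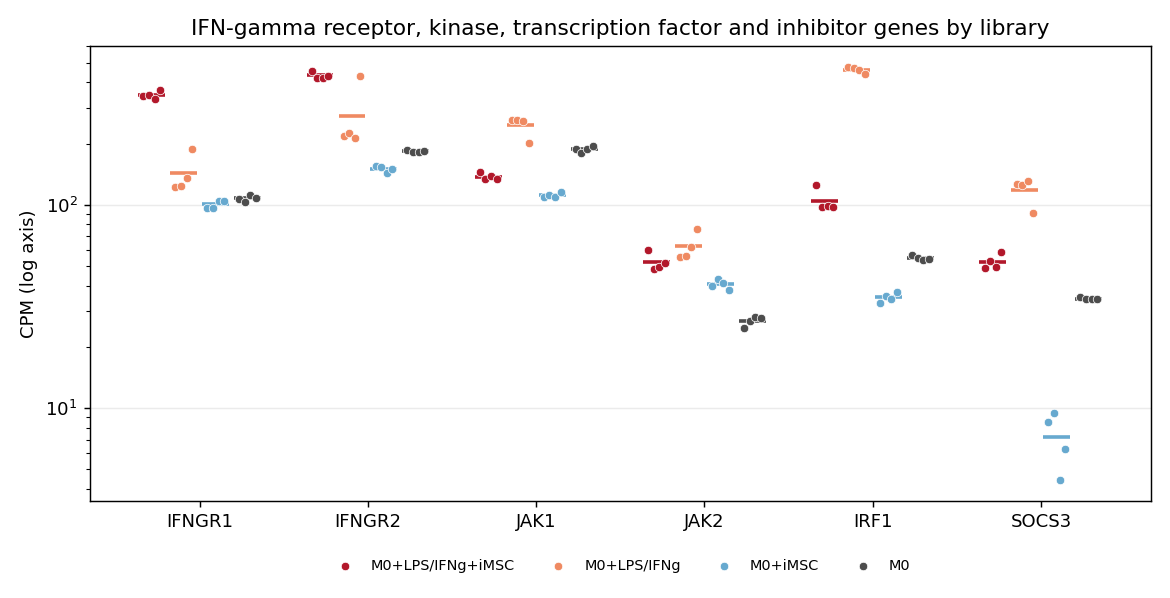
CPM (log axis) of the receptor genes IFNGR1 and IFNGR2, the kinase genes JAK1 and JAK2, the transcription factor gene IRF1 and the inhibitor gene SOCS3, 1 point per library and a bar at each group mean. IRF1 is highest in M0+LPS/IFNg (461 CPM on average) and, unlike GBP1 to GBP4, lower in M0+iMSC (35.1 CPM on average) than in M0 (54.8 CPM).

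Other IFN-gamma targets were followed as a list of 14. All 14 rose with stimulation, with a median of 3.28, among them CD274 at 4.45, TAP2 at 1.52, WARS1 at 2.00 and NLRC5 at 1.69. Others rose as far as the guanylate-binding protein genes, and 4 are named here after their values were seen. IDO1, which degrades tryptophan, rose by 12.04 and the chemokine gene CXCL10 by 10.90 (edgeR adjusted p = 1.24e-09 and 4.09e-11). The chemokine gene CXCL9 had 89654 counts in M0+LPS/IFNg and 0 in M0, and CXCL11 had 838 counts in M0+LPS/IFNg and 1 in M0. In unstimulated co-culture 5 rose and 3 fell, with a median of -0.06 (5, 1 and 0.01 with library totals alone). PSMB9, an immunoproteasome subunit, rose by 1.57 there, and CD274, the checkpoint ligand PD-L1, fell by 1.38 (edgeR adjusted p = 5.61e-08 and 6.47e-08). Under stimulation co-culture lowered 11 of 14, with a median of -1.48. Without M0+LPS/IFNg replicate 4 it lowered 11 and raised 1, and with library totals alone it lowered 10 and raised 2. CXCL10, CD274 and WARS1 changed by -4.02, -4.37 and -2.93, more than any guanylate-binding protein gene, and TAP2 by -0.66. These were not the only targets far lower in co-culture. In M0+LPS/IFNg+iMSC against M0+LPS/IFNg, CXCL9 averaged 3.04 against 1192 CPM, IDO1 12.8 against 424 CPM and CXCL11 0.762 against 11.5 CPM.

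Genes that work with the proteins in cell defence were followed as a list of 10. With stimulation 9 rose and 1 fell (median 1.71), including CASP4 at 1.77, the pore protein gene GSDMD at 1.65, the DNA sensor gene AIM2 at 3.47 and the antibacterial APOL3 at 4.49. In unstimulated co-culture 7 rose and 1 fell (median 0.58), with APOL3 at 2.41, CASP1 at 2.78, AIM2 at 1.67 and the inflammasome adaptor gene PYCARD at 1.06. Under stimulation co-culture lowered 3 and raised 4 (median 0.22). Library totals alone gave 3 lower and 6 higher (median 0.69), and without M0+LPS/IFNg replicate 4 it was 3 lower and 5 higher (median 0.21). AIM2, CASP4 and the inflammasome sensor gene NLRP3 fell by 1.77, 0.99 and 2.07, while PYCARD rose by 2.11 (edgeR adjusted p = 1.91e-09, 6.93e-10, 2.10e-13 and 8.72e-12). AIM2 thus fell with the 5 genes, at 31.9 ± 4.99 CPM in M0+LPS/IFNg+iMSC against 108 ± 16.7 CPM in M0+LPS/IFNg.

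The last list held 7 genes that modify the proteins or are acted on by them. With stimulation 2 rose and 1 fell (median 0.11), against 1 and 3 with a median of -0.15 by library totals alone. FURIN, a protease that GBP2 and GBP5 inhibit, rose by 0.81 (edgeR adjusted p = 4.85e-10). In unstimulated co-culture 3 rose and 3 fell, with the prenylation enzyme genes FNTB at 1.59 and PGGT1B at -0.98. Under stimulation co-culture lowered 4 and raised 2 (median -0.36), against 2 lowered and 3 raised with a median of 0.12 by library totals alone. PIM1, a kinase that phosphorylates GBP1 and so holds it inactive in the cytosol, changed by -3.32, at 50.3 ± 0.806 CPM in M0+LPS/IFNg+iMSC against 502 ± 43.0 CPM in M0+LPS/IFNg (SD, n = 4 each, edgeR adjusted p = 2.23e-16). FURIN changed by -1.09 and FNTB by 1.66.

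The genes whose pattern was most like each member were sought among 12544 genes, by Pearson's r of log2 CPM over the 16 libraries. Such values describe 4 group levels more than 16 independent points, since libraries of a group share their treatment. For GBP2 they included the Notch-modifying enzyme gene MFNG (r = 0.993) and the pseudogene PDCD6IPP2 (0.993). For GBP4 they included the interferon-induced transcription factor gene ETV7 (0.995) and MEFV (0.987), which encodes the inflammasome sensor pyrin. For GBP3 they were the cytokine subunit gene EBI3 (0.993), APOL6 (0.992) and PKIG (0.985). For GBP1 they were IL12RB1 (0.994), which encodes an IL12 receptor chain, C1S (0.991), a complement protease gene, and ANKRD44 (0.990). For GBP5 they were GBP1P1 (0.994), CYP1B1 (0.990) and the myosin gene MYO1G (0.989).

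Among the members themselves r over the 16 libraries ran from 0.886 for GBP3 and GBP5 to 0.989 for GBP1 and GBP5. GBP2 and GBP3, which rose most in unstimulated co-culture, were at 0.988, as were GBP2 and GBP4. ETV7 stood at 7.03 ± 1.81 CPM in M0+LPS/IFNg+iMSC, 25.9 ± 2.18 CPM in M0+LPS/IFNg, 0.594 ± 0.118 CPM in M0+iMSC and 0.0959 ± 0.106 CPM in M0 (SD, n = 4 each), the same order of groups as GBP4. That gene was picked for its likeness to GBP4 in these same libraries, so the shared order is no separate result.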

How the data were processed

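The 16 RNA samples were made into libraries with the VAHTS Universal V6 kit, as the labels' protocols state. A deposited table holds raw counts for each gene, with its exon length and its location on GRCh38.p13. HISAT2, HTSeq and GRCh38 are named in the submitters' processing notes, while strand settings and the handling of shared reads are not given in the sources used here. Each column was tied to its sample through the sample descriptions.

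The main model used edgeR 4.0.16 under R 4.3.3. Genes passing filterByExpr (minimum count 10; 15301 genes with at least 99.9% of each library's counts) were scaled with TMM factors and fitted in 1 quasi-likelihood model with a mean per group, robust estimation and no block. Benjamini-Hochberg adjustment ran over all genes of each contrast, with a threshold of 0.05. The SE of a log2 fold change is its size over the square root of F. Alternatives were DESeq2 1.42.0, limma-voom (limma 3.58.1), RLE and upper-quartile factors, other filters, only the groups compared, a replicate block and each library left out. Library totals without factors and M0+iMSC without replicates 1 and 2 or 3 and 4 were chosen after seeing the data. The members and lists were chosen with earlier results of these data known. Named list genes were the 4 with the smallest p in a contrast, or any signalling or inhibitor gene; GBP6, GBP7, ATL2, ATL3 and GBP1P1 are all relatives examined with ATL1. Gene lists are described by counts with no test. A gene of the signalling list is not reported here and is left out of that list's counts. No pair of libraries of a group agreed within sampling noise (chi-square per gene at least 1.88), so all were counted. Code was tested on simulated data. Plots used matplotlib 3.10.9 (python 3.11.15).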

Additional observations from a re-analysis of the deposited data

Results flagged for a closer look

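The interaction term of edgeR's quasi-likelihood fit was called below 0 for all 5 genes, where 31.1% of all genes were lower and 62.1% differed in either direction. It was -2.92 for GBP1, -4.87 for GBP2, -3.96 for GBP3, -4.77 for GBP4 and -3.87 for GBP5 on the log2 scale. The call for GBP5 rests on 24 counts in M0+iMSC and 9 in M0. It was lost without M0+LPS/IFNg replicate 4 and without M0+iMSC replicates 3 and 4 (edgeR adjusted p = 0.0635 and 0.102).

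In 40 groups of 4 values (CPM and share of the 5 genes' counts), 3 held a library far from the others, where chance gives about 1 in 20 groups. GBP3 stood at 64.6 CPM in M0+LPS/IFNg+iMSC replicate 1, against 49.5 to 52.1 CPM in the other 3. GBP1 held 42.3% of the 5 genes' counts in M0+LPS/IFNg+iMSC replicate 4, against 51.6% to 52.0% in the others. GBP1 held 44.3% in M0+LPS/IFNg replicate 4, against 34.3% to 35.3% in the others.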

How the results depend on the processing

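Of 939 alternative fold changes of the 5 genes over 7 contrasts, 936 kept their direction and their side of the threshold. The exceptions are all GBP5: it passed at rest with DESeq2 (1.31, adjusted p = 0.0463), and its interaction was lost when M0+LPS/IFNg replicate 4 was left out (-3.94, adjusted p = 0.0635) and without M0+iMSC replicates 3 and 4 (-3.24, adjusted p = 0.102). The cause was not tested. Of 20 share comparisons 15 passed, and 14 did when GBP6, GBP7 and GBP1P1 entered the sum, the GBP4 share with stimulation being lost. Leaving out a library made that test unable to reach the threshold, so shares were then only described. The labels state no pairing by replicate number. Same-numbered libraries deviated together (correlation over 0.1) in 1 of 24 pairs, and 3 of 16 libraries correlated best with their own number. With 4 libraries a group this check cannot exclude pairing or a shared batch. With a replicate block, 5, 4 and 5 members were called for stimulation, co-culture at rest and co-culture under stimulation, as without it. Library totals alone moved the share of called genes that were higher to 26.6% for stimulation, 61.5% for co-culture at rest and 74.6% under stimulation, against 50.7%, 51.9% and 51.4%. By library totals 7 of the 20 group means in CPM moved by more than 1 SD. GBP5 had only 24 counts in all of M0+iMSC and 9 in M0.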
